A study of Mus musculus with 15 samples.

Results

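The genes described here are 39 mouse genes that run the cell division cycle, chosen by name, with no value in the rule that lists them. All 39 were found by symbol among the 46517 genes of the deposited RNA count files, and all 39 passed the filter on low counts that left 18132 genes for testing. They were separated by known role into 18 replication genes, 18 mitotic genes and 3 D cyclins. The kidneys came from C57BL/6 mice at postnatal day 0. Messenger RNA was sequenced from 3 controls, which carried floxed Dnmt1 alleles and no Cre, and from 3 knockouts (KO), which carried the same floxed alleles and a Cre recombinase driven by Six2. Reduced representation bisulfite sequencing (RRBS), which reads cytosine methylation in CpG-rich fragments, covered 3 controls and 3 KO samples of the same day and 3 wild-type adults of 6 weeks. Dnmt1 is the methyltransferase that copies CpG methylation onto newly made DNA. Six2 is expressed in the nephron progenitors, so this Cre marks these cells and the nephrons they form, while stroma, endothelium, ureteric epithelium and blood cells lie outside that lineage. The labels name Six2-positive kidney cells as the source, yet the extraction text speaks of entire kidneys. The labels do not say whether each sample came from its own animal, so p-values measure the spread between these samples only.

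A cell commits to division when D cyclins, with CDK4 or CDK6, phosphorylate the retinoblastoma protein and release E2F factors. E2F then switches on the genes for origin licensing, DNA polymerase accessories and nucleotide supply, which are used at the start of S phase. Mitotic genes come on later, in G2, under FOXM1, B-MYB and the MuvB complex, and their products build the spindle, drive entry into mitosis and trigger its exit. In the newborn mouse kidney, progenitors and early nephrons still divide while the earliest nephrons have matured and left the cycle.

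Gene counts totalled between 26773937 and 34102567 per RNA sample, and RRBS held between 18424875 and 88765177 calls per sample. Dnmt1 stood at 180, 156 and 188 CPM (counts scaled to library size by the TMM method of edgeR) in controls and at 110, 111 and 93.7 CPM in KO samples, with every KO sample below every control. Its log2 fold change, KO minus control as for all fold changes here, was -0.74 (SE 0.12, edgeR adjusted p 0.00577). The nephron progenitor list, which includes Six2 and Cited1, summed to between 529 and 575 CPM in controls and between 524 and 572 CPM in KO samples. Its single markers went in both directions, with Cited1 lower in KO. Tubule, podocyte, endothelial, stromal, ureteric, erythroid and macrophage markers were also present in every sample. Control 3 stood apart from the other controls, with 10 tubule markers summing to 5531 CPM against 3095 and 3116 CPM, so the counts of members and of pathway genes past the threshold are also given without it. In such bulk tissue, fewer cells of a type and less RNA per cell cannot be told apart.

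Few of the cell cycle genes differed between KO and control kidneys by the test. Ccnd2 (ENSMUSG00000000184.11), a D cyclin, and Cenpe (ENSMUSG00000045328.10), a kinetochore motor protein, were higher in KO, and Rrm2 (ENSMUSG00000020649.10), the small subunit of ribonucleotide reductase, was lower. These 3 of 39 genes make 7.69% at an adjusted p under 0.05, against 14.6% of all genes tested. By direction, 2 members were higher, where the share over all genes was 6.36%, and 1 was lower, where that share was 8.23%. The median log2 fold change of the 39 was 0.06, with a range from -0.43 to 0.57, while all tested genes had a median of -0.00 and a range from -6.85 to 12.91. At an unadjusted p under 0.05 there were 7 members, or 17.9%, against 28.0% of all genes.

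**Figure D1:**
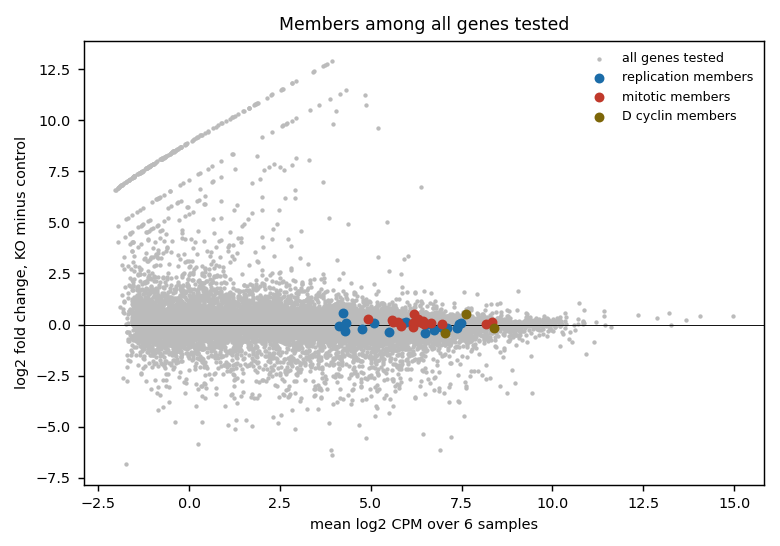
Each grey point is one of the 18132 genes tested, with its mean log2 CPM over 6 samples on the horizontal axis and its log2 fold change (KO minus control) on the vertical axis. Replication members (blue), mitotic members (red) and D cyclins (brown) all lie between -0.43 and 0.57, within a cloud that runs from -6.85 to 12.91.

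The 95% interval of the fold change lay wholly within 2-fold of control for 38 of 39 members, or 97.4%, against 61.6% of all genes tested, many of which had far fewer reads. Ccne2 was the exception, with an upper bound of 2.12-fold. For 31 members the interval lay within 1.5-fold in either direction. All 3 KO samples lay above all 3 controls for 5 members (12.8%; 16.5% of all genes) and below them for 4 members (10.3%; 17.8% of all genes).

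**Figure D2:**
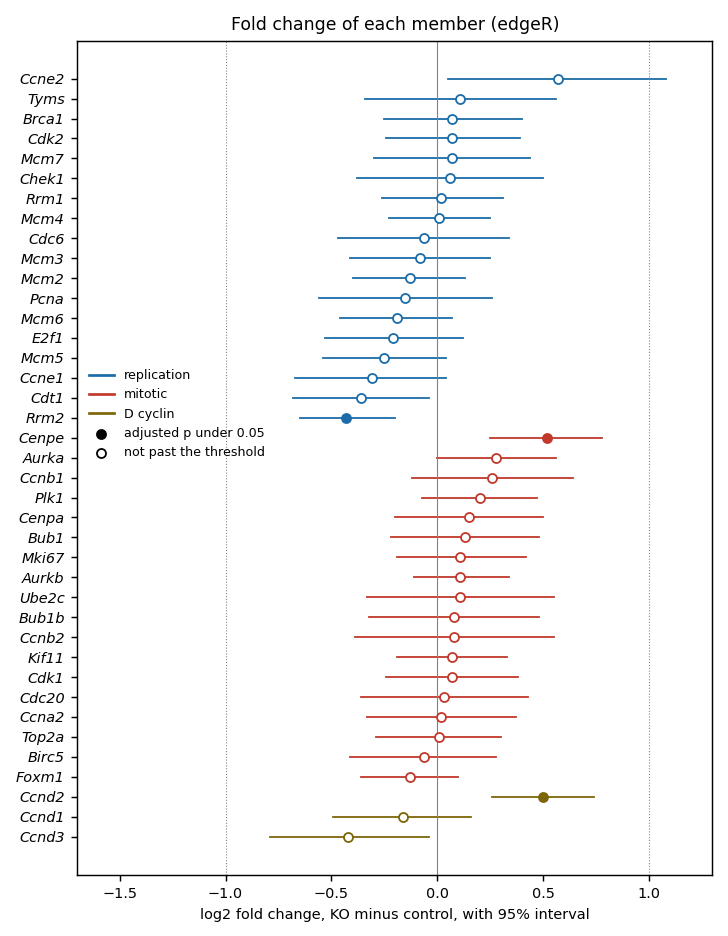
Points give the log2 fold change (KO minus control) of each of the 39 genes, by class, and bars its 95% interval, derived from the edgeR test statistic. Filled points passed an adjusted p of 0.05. Every interval except that of Ccne2 stays inside the dotted lines at -1 and 1, and only Rrm2, Cenpe and Ccnd2 are filled.

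The promoters of the 2 classes held different letters, which the choice of members did not use. RefSeq promoters of GRCm38.p6, from 250 bases before to 50 bases after the annotated start, were matched for 16 replication and 15 mitotic members, and for 17491 protein-coding genes in all. The motifs searched on both strands were CCAAT (bound by NF-Y), TTTGAA (the cell cycle genes homology region, bound by MuvB), and TTTGGCGC and TTTCCCGC (forms of the E2F site). CCAAT was found in 14 of 15 mitotic promoters (93.3%) and 10 of 16 replication promoters (62.5%), against 39.2% of all promoters. TTTGAA was found in 11 of 15 mitotic promoters (73.3%) and in 1 of 16 replication promoters (6.25%), that of Mcm2, against 16.5% of all. Either E2F form was found in 7 of 16 replication promoters (43.8%), namely those of Cdc6, Cdk2, Cdt1, Mcm3, Mcm5, Mcm6 and Mcm7, and in none of the 15 mitotic ones, against 2.1% of all. E2F sites also occur with other letters, which were not searched, and no match says only that these letters are not in this window. A match describes the sequence and was not tied to binding here.

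The 150 bases before the start are shown for a pair of genes of each class, read 5′ to 3′ on the gene's own strand, with motif letters in capitals. Rrm2 (chr12:24708104-24708253, plus strand) and Cenpe (chr3:135212413-135212562, plus strand) are shown because they passed the test of expression. Mcm5 (chr8:75109359-75109508, plus strand) and Cdc20 (chr4:118437344-118437493, minus strand) are shown because they hold the motifs of their class and RRBS covers them.
Rrm2: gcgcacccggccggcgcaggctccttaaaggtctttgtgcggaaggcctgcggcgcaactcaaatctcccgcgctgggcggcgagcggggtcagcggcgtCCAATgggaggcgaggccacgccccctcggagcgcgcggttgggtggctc
Mcm5: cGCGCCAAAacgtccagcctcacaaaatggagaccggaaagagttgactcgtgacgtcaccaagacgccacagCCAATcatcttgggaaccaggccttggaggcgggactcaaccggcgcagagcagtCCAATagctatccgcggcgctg
Cenpe: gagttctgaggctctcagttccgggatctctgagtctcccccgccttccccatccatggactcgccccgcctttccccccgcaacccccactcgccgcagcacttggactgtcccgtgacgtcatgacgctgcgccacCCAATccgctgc
Cdc20: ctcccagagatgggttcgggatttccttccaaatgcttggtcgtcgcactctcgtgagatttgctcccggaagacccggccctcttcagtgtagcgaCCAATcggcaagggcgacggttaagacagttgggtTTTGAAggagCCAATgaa
In Mcm5 the first run of capitals is the E2F form TTTGGCGC on the opposite strand, and 2 CCAAT follow it. Cdc20 holds 2 CCAAT with TTTGAA between them. Rrm2 and Cenpe hold 1 CCAAT each and none of the other letters searched.

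Among replication genes, 1 of 18 was lower in KO (5.56%; 8.23% of all genes) and none was higher. The class median was -0.07 on the log2 scale, with 8 members above 0 and 10 below it. Rrm2, whose subunit carries the radical needed to turn ribonucleotides into deoxyribonucleotides, was the gene that fell. It stood at 110, 102 and 99.9 CPM in controls and at 79.6, 74.0 and 78.5 CPM in KO samples. All KO samples lay below all controls, and the fold was 0.744 (95% interval 0.636 to 0.871, log2 -0.43, SE 0.10, edgeR adjusted p 0.0239). Rrm1, the large subunit of the same enzyme, stood at 181, 186 and 148 CPM in controls and 167, 178 and 178 CPM in KO samples, which overlap. Tyms, which makes thymidylate, ranged from 43.9 to 77.1 CPM in controls and from 58.1 to 72.2 CPM in KO samples. The adjusted p was 0.937 for Rrm1 and 0.785 for Tyms.

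The licensing genes load the replicative helicase onto origins, and none of the 8 passed the test with edgeR or DESeq2, with 1 of them, Cdt1, at an unadjusted p under 0.05. Their median log2 fold change was -0.11. With limma voom, which weights samples by quality and called 27.8% of all genes, Cdt1 and Mcm5 were lower. Mcm7, the replication member with the most reads, stood at 176, 210 and 136 CPM in controls and at 188, 185 and 175 CPM in KO samples (log2 fold change 0.07, SE 0.16, adjusted p 0.840). Its KO samples lay inside the range of the controls. Of the other helicase subunits, Mcm2, Mcm3, Mcm4, Mcm5 and Mcm6 had log2 fold changes from -0.25 (Mcm5) to 0.01 (Mcm4) and adjusted p from 0.241 to 0.956. Cdt1, which brings the helicase to the origin, stood at 49.3, 60.9 and 43.6 CPM in controls and at 39.4, 41.0 and 39.3 CPM in KO samples. Every KO sample lay below every control for Cdt1, but the log2 fold change of -0.36 (SE 0.14) had an adjusted p of 0.134. Cdc6, the other loading factor, and Mcm3 were the members in the middle of the class. Cdc6 averaged 17.8 ± 3.28 CPM in controls and 17.0 ± 1.68 CPM in KO samples (SD, n = 3 each), a log2 fold change of -0.06 (SE 0.18, adjusted p 0.864). Mcm3 stood at 143, 141 and 103 CPM in controls and at 119, 126 and 121 CPM in KO samples (log2 fold change -0.08, SE 0.14, adjusted p 0.779).

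Pcna, the sliding clamp of the DNA polymerases, ranged from 106 to 175 CPM in controls and from 127 to 136 CPM in KO samples. Its log2 fold change was -0.15 (SE 0.18, adjusted p 0.654). Chek1 and Brca1, which guard stalled and broken forks, had log2 fold changes of 0.06 and 0.07, and their groups overlapped.

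None of the 4 regulators of entry into S phase passed the test with edgeR or DESeq2, with 1 of them, Ccne2, at an unadjusted p under 0.05. Ccne2, a cyclin partner of Cdk2, stood at 10.7, 16.9 and 18.3 CPM in controls and at 26.5, 19.7 and 21.7 CPM in KO samples, all higher than the controls. Its paralog Ccne1 stood at 23.4, 23.1 and 17.8 CPM in controls and at 16.9, 17.8 and 17.0 CPM in KO samples, so that the lowest control touches the KO range. The log2 fold change was 0.57 (SE 0.22, adjusted p 0.142) for Ccne2 and -0.31 (SE 0.16, adjusted p 0.236) for Ccne1. Neither passed the threshold with edgeR or DESeq2, while limma voom called Ccne2 higher and Ccne1 lower. The difference between them was not tested. Cdk2 itself had a log2 fold change of 0.07 and E2f1 one of -0.21, with adjusted p of 0.793 and 0.399.

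Among mitotic genes, 1 of 18 was higher in KO (5.56%; 6.36% of all genes) and none was lower. Cenpe, the kinesin that carries chromosomes to the spindle equator, stood at 67.6, 57.5 and 54.3 CPM in controls and at 87.0, 85.2 and 84.4 CPM in KO samples. All KO samples lay above all controls, and the fold was 1.43 (95% interval 1.19 to 1.72, log2 0.52, SE 0.11, edgeR adjusted p 0.0197). The class median was 0.10, and 16 of 18 fold changes were above 0 (9 of 18 without control 3), but no other member passed the test.

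Chromosome and spindle genes other than Cenpe overlapped between groups except Aurkb. Mki67, which coats mitotic chromosomes and is the usual marker of cycling cells, had the most reads of the class. It stood at 352, 308 and 281 CPM in controls and at 356, 335 and 328 CPM in KO samples, where the control range covers most of the KO range. The log2 fold change of Mki67 was 0.11 (SE 0.13, adjusted p 0.647). Top2a, which untangles sister chromatids, stood at 325, 284 and 259 CPM in controls and at 284, 292 and 297 CPM in KO samples, a log2 fold change of 0.01 (SE 0.13). Kif11, the motor that separates spindle poles, Cenpa, the histone of centromeres, and Birc5, a subunit of the chromosomal passenger complex, lay between -0.06 and 0.15. Aurkb, the kinase of that complex, stood at 53.3, 53.1 and 49.5 CPM in controls and at 56.1, 57.4 and 55.1 CPM in KO samples, an adjusted p of 0.523.

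None of the 7 kinases, cyclins and regulators of mitotic entry passed the test with edgeR or DESeq2, with 1 of them, Aurka, at an unadjusted p under 0.05. This kinase of the spindle poles stood at 29.0, 26.9 and 26.0 CPM in controls and at 35.4, 33.4 and 30.7 CPM in KO samples, all above the controls, with an adjusted p of 0.173. Ccnb1, which activates Cdk1 at mitotic entry, stood at 76.7, 84.3 and 53.9 CPM in controls and at 82.4, 87.1 and 88.0 CPM in KO samples. Its log2 fold change of 0.26 (SE 0.16, adjusted p 0.358) came with a control range wider than the difference of the means. Ccnb2, Ccna2, Cdk1 and Plk1 had log2 fold changes from 0.02 to 0.20. Foxm1, a transcription factor of the G2 genes, was the one member of the class with every KO sample below every control, at 68.6, 68.4 and 67.0 CPM against 79.8, 72.2 and 71.0 CPM. Its log2 fold change was -0.13 and its adjusted p 0.467.

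The 4 genes of the spindle checkpoint and mitotic exit had fold changes close to 0. Bub1 and Bub1b hold anaphase back until chromosomes are attached, and Cdc20 and Ube2c start the destruction of cyclins and securin. Their log2 fold changes were 0.13, 0.08, 0.03 and 0.11, none with an adjusted p under 0.641. Bub1b and Ube2c were the members in the middle of the class. Bub1b stood at 102, 84.9 and 64.6 CPM in controls and at 77.3, 95.8 and 92.9 CPM in KO samples (SE 0.17, adjusted p 0.818). Ube2c stood at 89.3, 91.5 and 55.2 CPM in controls and at 77.6, 89.1 and 87.8 CPM in KO samples (SE 0.19, adjusted p 0.776).

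**Figure D3:**
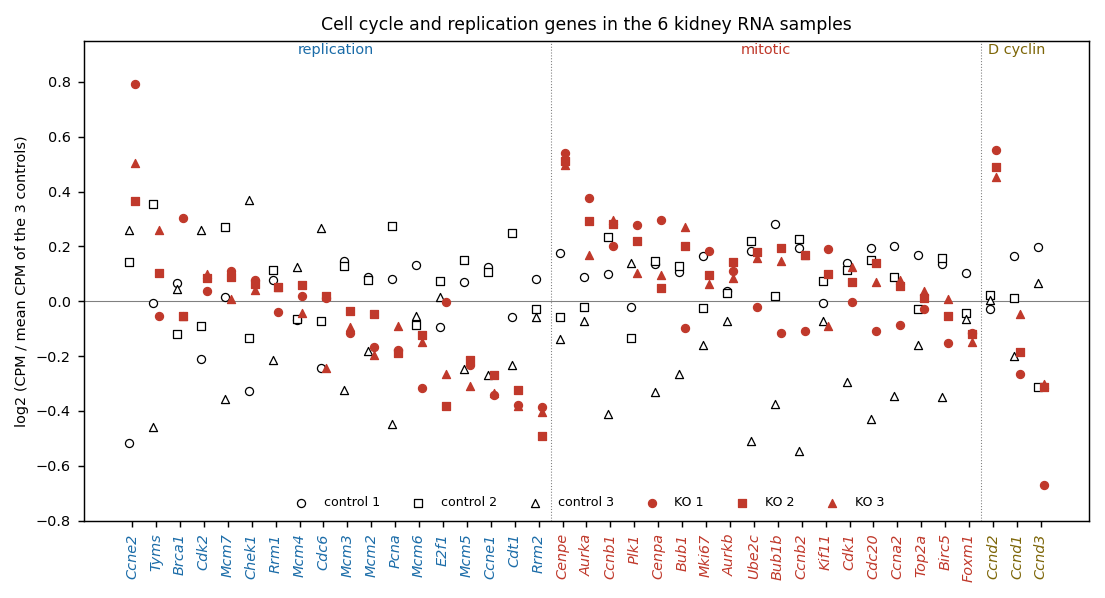
For each of the 39 genes, points give log2 of the CPM in one sample over the mean CPM of the 3 controls; open black symbols are controls, filled red symbols KO samples, and the symbol shape gives the sample number. In the mitotic block control 3 (open triangles) is the lowest of 6 samples for 15 of 18 genes, while Ccnd2 and Cenpe show all KO samples above all controls and Rrm2 all below.

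Of the 3 D cyclins, which link growth signals to the cycle, 1 was higher in KO (33.3%; 6.36% of all genes). Ccnd2 stood at 161, 167 and 165 CPM in controls and at 241, 231 and 225 CPM in KO samples, with a gap between the groups much wider than either group's range. The fold was 1.41 (95% interval 1.20 to 1.67, log2 0.50, SE 0.10, edgeR adjusted p 0.0153). Ccnd1 stood at 395, 355 and 307 CPM in controls and at 293, 310 and 341 CPM in KO samples, which overlap (log2 fold change -0.16, SE 0.14, adjusted p 0.523). Ccnd3 stood at 171, 120 and 156 CPM in controls and at 93.7, 120 and 121 CPM in KO samples (log2 fold change -0.42, SE 0.16, adjusted p 0.139). The lowest control of Ccnd3 reaches the highest KO samples.

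Control 3 stood further from the other controls in the mitotic class than in the replication class. Averaged over the 18 mitotic genes, log2 CPM relative to the control mean was 0.15, 0.09 and -0.23 in controls, against 0.09, 0.16 and 0.13 in KO. The KO values thus lie within the range of the first 2 controls or just above it, and control 3 lies far below all of them. The 18 replication genes averaged -0.02, 0.09 and -0.07 in controls, against -0.03, -0.06 and -0.07 in KO, so that control 3 sits among the KO samples. Control 3 was the lowest of 6 samples for 15 of 18 mitotic genes and for 5 of 18 replication genes. For Cdk2, Chek1, Mcm4 and Cdc6 it was the highest. Against controls 1 and 2 alone, the KO mean was 0.01 for the mitotic class and -0.09 for the replication class.

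**Figure D4:**
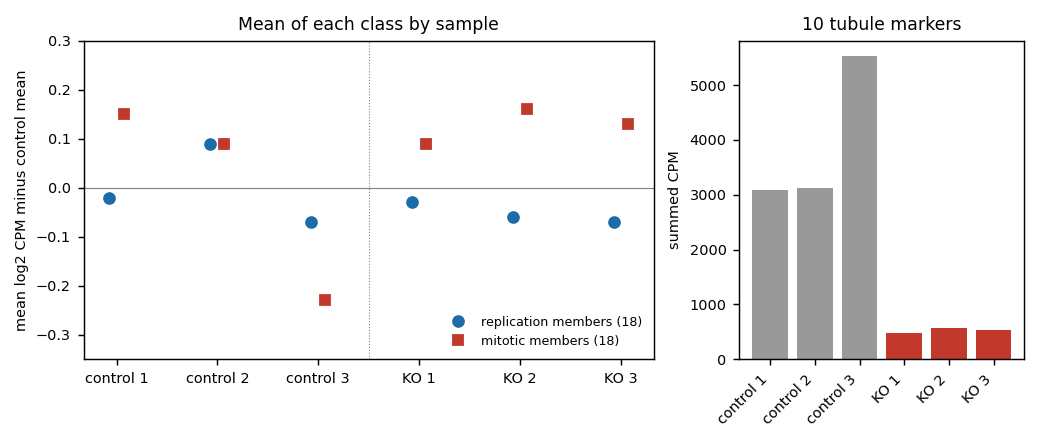
Left, the mean log2 CPM of the 18 replication genes (blue circles) and the 18 mitotic genes (red squares) in each RNA sample, relative to the mean of the controls; right, the summed CPM of 10 tubule markers in the same samples. The mitotic mean of control 3, at -0.23, is the lowest of the 6, and the same sample has the highest tubule sum, at 5531 CPM.

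Without control 3, 8 of 39 members passed the test, or 20.5%, where 27.4% of 18533 genes did. By direction, 13.6% of all genes were higher and 13.8% lower in this setting. Among the members, Ccnd2, Cenpe and Ccne2 were higher, and Rrm2, Mcm5, Cdt1, Ccne1 and Pcna, all 5 replication genes, were lower. Their log2 fold changes without control 3 were 0.72 for Ccne2, -0.46 for Cdt1, -0.43 for Ccne1, -0.36 for Mcm5 and -0.33 for Pcna. The class medians became -0.14 for replication and -0.03 for mitosis, with 9 of 18 mitotic genes below 0. The mitotic median was also below 0, at -0.01, with limma voom, which weights samples by quality. Leaving out any one KO sample ended all 3 calls, as did treating same-numbered samples as blocks. Leaving out control 1 ended those of Ccnd2 and Rrm2, and leaving out control 2 that of Cenpe. The log2 fold changes of the 3 genes nevertheless stayed between 0.47 and 0.53 for Ccnd2, between 0.45 and 0.61 for Cenpe and between -0.47 and -0.39 for Rrm2 in all settings run.

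The 10 tubule markers, such as Umod and Slc34a1, were all lower in KO, summing to between 471 and 564 CPM there and between 3095 and 5531 CPM in controls. The 6 podocyte markers were all lower too, and 4 of 6 endothelial markers, where 8.23% of all genes were lower. Of 8 nephron progenitor markers, 2 were higher (Eya1 and Osr1) and 2 lower (Cited1 and Itga8), where 6.36% and 8.23% of all genes were. Cited1 stood at 44.8, 63.0 and 17.8 CPM in controls and at 8.85, 6.95 and 5.85 CPM in KO samples (edgeR adjusted p 0.00556). Six2 stood at 98.0, 107 and 41.4 CPM in controls and at 84.4, 93.8 and 105 CPM in KO samples. Control 3 had the lowest Six2 level, but the list did not move as one in that sample. Cited1, Crym and Meox1 were also lowest among the controls there. Sall1, Itga8 and Osr1 were highest among the controls there, at 205, 192 and 7.34 CPM, and Eya1 lay between the other controls. Of 7 stromal markers, 3 were higher in KO (42.9%; 6.36% of all genes). Tcf21 and Col3a1 had log2 fold changes of 0.32 and 0.03, and Col1a1 and Pdgfrb of -0.22 and -0.52, none past the threshold. For Pdgfrb every KO sample lay below every control (edgeR adjusted p 0.0659). The stromal list summed to between 3245 and 3780 CPM in controls and between 3135 and 3686 CPM in KO samples. Of 8 ureteric markers 3 were higher (37.5%; 6.36% of all genes). Among them, Ret stood at 63.3, 88.8 and 42.7 CPM in controls and at 127, 124 and 119 CPM in KO samples. Aqp2, Wnt11 and Hoxb7 had log2 fold changes of -0.58, -0.37 and -0.06, none past the threshold. Without control 3, 4 ureteric markers were higher and 2, Aqp2 and Wnt11, were lower, where 13.6% and 13.8% of all genes were. The ureteric list summed to between 781 and 1361 CPM in controls and between 1059 and 1584 CPM in KO samples. Of 6 macrophage and leukocyte markers 2, Ptprc and Cd14, were higher (33.3%; 6.36% of all genes). Csf1r went the other way, at 30.4, 33.4 and 50.7 CPM in controls and at 28.5, 19.9 and 28.5 CPM in KO samples. Its groups did not overlap, with a log2 fold change of -0.58 (edgeR adjusted p 0.141). Adgre1, Cd68 and Itgam had log2 fold changes of 0.51, 0.59 and -0.04, none past the threshold. The macrophage and leukocyte list summed to between 56.8 and 79.0 CPM in controls and between 63.6 and 79.6 CPM in KO samples. Of 8 erythroid markers tested, 1 was lower in KO (12.5%; 8.23% of all genes). The erythroid list summed to 1292, 1000 and 408 CPM in controls and to 705, 617 and 914 CPM in KO samples. No list had all its markers at 0 in any sample. The part of these cell types in the cell cycle results was not tested.

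The wider pathway was read from lists that do not hold the 39 genes. None of 50 other replication genes passed the test, and their median log2 fold change was 0.07. At an unadjusted p under 0.05 there were 3 of the 50, DESeq2 called none and limma voom called 2, Cdc7 and Orc5. Without control 3, 4 of the 50 were higher and 3 lower, or 14.0%, against 27.4% of all genes, and the median was 0.03. Of 56 other mitotic genes, 4 were higher in KO and none lower, or 7.14%, close to the 6.36% of all genes that were higher. Their median was 0.22, 49 of 56 were above 0, and in 22 of 56 (39.3%) all KO samples lay above all controls, where 16.5% of all genes did. No test of the list as a whole was made. Aspm, a spindle pole protein, stood at 36.1, 35.5 and 42.9 CPM in controls and at 64.6, 61.2 and 62.2 CPM in KO samples (log2 fold change 0.71, SE 0.12, adjusted p 0.00483). Ect2, which positions the cleavage furrow, stood at 43.7, 46.8 and 41.0 CPM in controls and at 59.8, 62.5 and 62.4 CPM in KO samples (log2 fold change 0.49, SE 0.10, adjusted p 0.0163). Knl1, a kinetochore scaffold, stood at 24.6, 26.3 and 23.7 CPM in controls and at 36.5, 34.2 and 36.7 CPM in KO samples (log2 fold change 0.53, SE 0.12, adjusted p 0.0194). In each of these genes the groups are well apart. The remaining gene, Ccnf, had a log2 fold change of 0.50 (adjusted p 0.0334) and is named here after its value was seen. Its call ended with library size alone (adjusted p 0.0886), when genes with low counts were kept (0.0544) and when any one sample other than control 3 was left out. Aspm kept its call in every setting run, while those of Ect2 and Knl1 ended without control 1 or without any one KO sample. The calls of Ect2, Knl1 and Ccnf also ended at an adjusted p under 0.01 and when same-numbered samples were treated as blocks. Without control 3, the median of these 56 genes was 0.14, with 12 higher (21.4%; 13.6% of all genes) and none lower.

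Of 7 CDK inhibitor genes tested, whose products hold the cycle back, 2 were higher in KO (28.6%; 6.36% of all genes). Cdkn2a, whose transcripts encode p16INK4a and p19ARF, had 4, 7 and 3 reads in controls and 49, 63 and 57 reads in KO samples. That is 0.122, 0.227 and 0.0815 CPM against 1.53, 2.07 and 2.17 CPM, a log2 fold change of 3.73 (SE 0.43, adjusted p 0.00113) from a low level in both groups. With under 10 reads in every control, Cdkn2a passed the filter on low counts through the KO samples, and it was not tested where at least 10 counts were asked of every sample. Cdkn2b, which encodes p15INK4b and lies beside it, stood at 1.01, 1.42 and 1.01 CPM in controls and at 5.52, 2.88 and 2.62 CPM in KO samples (log2 fold change 1.68, SE 0.37, adjusted p 0.0189). The call of Cdkn2b ended without control 1 (adjusted p 0.0727) or without KO 1 (adjusted p 0.0790). Cdkn1a, the p53 target p21, stood at 120, 66.9 and 69.3 CPM in controls and at 51.1, 65.7 and 72.5 CPM in KO samples, which overlap (adjusted p 0.289). Of 17 E2F, pocket protein and MuvB genes, 1 was lower (5.88%; 8.23% of all genes). It was Rb1, the retinoblastoma protein gene that holds E2F back, at 46.6, 44.2 and 42.0 CPM in controls and 28.6, 30.4 and 28.7 CPM in KO samples (log2 fold change -0.60, SE 0.11, adjusted p 0.00881). Without KO 1 its adjusted p was 0.0548. Without control 3 and with limma voom, E2f3 and Tfdp1 of this list were higher, beside the lower Rb1. These make 11.8% of the list higher, where 13.6% of all genes were higher without control 3. Among the CDK inhibitors, Cdkn1c was lower without control 3, where 13.8% of all genes were lower. None of 9 genes of G1 kinases and Myc proteins and none of 14 genes of the anaphase-promoting complex passed, with 2 and 5 of them at an unadjusted p under 0.05. The smallest p in these lists belonged to Cdk7 (log2 fold change 0.41, adjusted p 0.0726) and Cdc27 (0.46, adjusted p 0.0704), both past the threshold with DESeq2 (adjusted p 0.0432 and 0.0358). Without control 3, and also with limma voom, 2 of the 9 (Cdk7 and Skp2) and 3 of the 14 (Anapc4, Cdc23 and Cdc27) were higher. These make 22.2% and 21.4%, where 13.6% of all genes were higher without control 3. Genes named here from calls in these settings alone were chosen after their values were seen.

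Methylation was low in both groups at most member starts that could be tested. CpG calls within 1000 bases of the RefSeq start were summed over positions, and the methylated percent was taken. Averages over positions given below thus weight each position by its calls. A window needed at least 3 positions with at least 10 calls in each newborn sample, which 19 members and 7798 genes in all met. None of the 19 was lower in KO by at least 10 points in the quasi-binomial test, where 3.99% of all promoters were. At an unadjusted p under 0.05 there were 2 of the 19, E2f1 and Cdc20. The share of all promoters at that p was not computed, so this count has nothing to be set against. Controls were under 10% methylated at 18 of 19 member starts (94.7%), against 83.5% of all promoters, so a loss of 10 points could not occur at these. The median was 1.16% in controls and 1.19% in KO samples. At the Cdc20 start shown above, 19 positions averaged 1.41%, 0.826% and 0.969% in controls against 0.331%, 0.362% and 0.213% in KO (adjusted p 0.165). At the Mcm5 start, 9 positions averaged 0.951% ± 0.765 in controls and 0.736% ± 0.706 in KO (n = 3 each, SD). In both, control and KO levels differ by less than 1 point.

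Rrm1 was the exception. Its window (chromosome 7, start at 102441695) averaged 20.9%, 18.7% and 13.7% in controls, 17.5%, 6.22% and 17.9% in KO and 7.49%, 7.14% and 7.59% in adults. The difference of -3.92 points between KO and control had an adjusted p of 0.738, and the groups overlap. Among these 19 starts no other had a KO mean above that of Rrm1, at 13.9%.

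**Figure D5:**
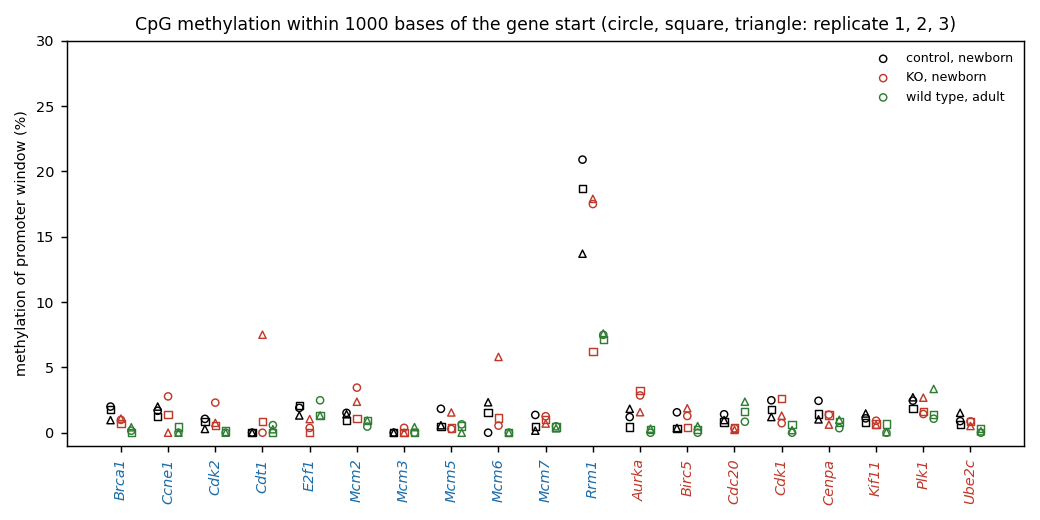
Methylation (percent of the calls summed over CpG positions) within 1000 bases of the start of the 19 members covered, for 3 newborn controls (black), 3 newborn KO samples (red) and 3 wild-type adults (green); circles, squares and triangles are samples 1 to 3. All starts except that of Rrm1 lie under 10% in every sample, and the highest of these is KO 3 at Cdt1, at 7.50%.

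The starts of the 3 genes with changed expression were covered less. With a minimum of 5 calls, 4 positions at the Cenpe start averaged 1.37% in controls and 0.833% in KO samples, and 5 positions at the Rrm2 start averaged 1.05% and 1.49%. Ccnd2 was not matched in the promoter table, so the 2 ends of the gene are given without saying which is the start (chromosome 6, 127125162 to 127152188, GRCm38). Within 1000 bases of the end with the higher coordinate, 5 positions averaged 1.47% ± 1.09 in controls, against 1.11% ± 1.92 in KO. Near the end with the lower coordinate, 8 positions averaged 82.1% ± 5.12 in controls, 67.2% ± 2.01 in KO and 80.5% ± 4.73 in adults (n = 3 each, SD). The KO samples lay below all controls there, a difference that was not tested. The same held at each of the 13 regions of 12 members, at or between the gene ends, that had at least 3 positions and at least 50% methylation in controls. The differences there ran from -31 to -14.9 points, the smallest being that of Ccnd2. The share over comparable regions of other genes was not computed, so the count is not a result particular to these members. Under that cut, 5 positions between the ends of Mcm4 averaged 30.9% in controls and 37.8% in KO. Between the ends of Ccnb2, Ccnd2 and E2f1, also under it, the KO mean was lower. At the RefSeq start used for Cdkn2a (chromosome 4, 89294619), 30 positions averaged 0.909% in controls and 1.09% in KO samples (adjusted p 0.677). Only this start of the gene was read, and the gene counts do not say which of its transcripts rose. Without RRBS KO 3, the shallowest sample, more positions could be used and 1 of 28 member starts was lower, where 4.84% of 9983 promoters were. It was that of Cdc6, where 3 positions averaged 86.0% in controls and 35.7% in the other KO samples (adjusted p 0.0141). With all 6 samples and a minimum of 5 calls, the Cdc6 start averaged 43.6% in controls and 31.8% in KO (adjusted p 0.538), and 4 positions at the Ccnd3 start averaged 76.6% and 59.2% (adjusted p 0.368).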

How the data were processed

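The 6 RNA files hold raw read counts per gene, deposited by the authors. STAR 2.4.1d and HTSeq 0.6.1 are named for alignment and counting in the submitters' processing notes, as are Trim Galore and Bismark for RRBS, with builds mm10 and GRCm38. The deposited RRBS files give per cytosine a methylation percent and the counts of methylated and unmethylated calls, from which percents were recomputed here. Reads outside genes, ambiguous or not uniquely placed made up 22.9% to 35.8% of an RNA sample and stayed out, so a gene with near-identical copies may be undercounted.

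Counts were tested with edgeR 4.0.16 (quasi-likelihood, TMM, filter on low counts; limma 3.58.1, R 4.3.3) over 18132 genes, KO against control, with Benjamini-Hochberg adjustment at 0.05 over all of them. The SE of an edgeR fold change was derived as the size of the log2 fold change over the square root of the F statistic. Intervals were built from that SE and the t distribution. DESeq2 1.42.0 was an alternative. For promoter windows, a quasi-binomial logistic model was fitted to call counts with moderated dispersion, 1 window per gene at the RefSeq start (GRCm38.p6) nearest its outer 5′ end, adjusted over 7798 windows. Aurkb, Ccna2, Ccnd1, Ccnd2, Ccne2, Foxm1 and Mcm4 had no match in the promoter table used. Both tests were tested on simulated data.

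The members, the gene lists and the rule for named genes were chosen with earlier results of these data known. The rule names the members past the threshold, the D cyclins, the member with most reads and those in the middle of each class, and from each pathway list up to 3 genes with the smallest p past the threshold, otherwise the 1 with the smallest p. A gene named by it is not reported here. Which members count as replication or mitotic was a choice for 8 genes. Depth limits the windows to those with at least 10 calls per position.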

Additional observations from a re-analysis of the deposited data

How the results depend on the processing

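Of the 39 members, 17 changed the sign of their fold change in at least one of 15 settings. The largest log2 fold change among these was 0.15 in size with all 6 samples, and no member past the threshold with all 6 was among them. The signs that turned, on the log2 scale, were as follows. With limma voom they were 0.10 for Cdc6, -0.02 for Mcm7, -0.04 for Rrm1, -0.06 for Top2a, -0.10 for Ccna2, -0.06 for Ccnb2, -0.03 for Cdk1, -0.08 for Cdc20, -0.03 for Bub1b and -0.03 for Ube2c. With no filter on low counts they were -0.01 for Mcm4, -0.0014 for Rrm1, -0.02 for Top2a and -0.0037 for Ccna2. With TMM factors computed without the called genes they were -0.0012 for Mcm4 and -0.0049 for Top2a. Leaving out each RNA sample in turn gave Birc5 from -0.21 to 0.02, Brca1 from -0.06 to 0.13, Bub1b from -0.08 to 0.24, Ccna2 from -0.13 to 0.13, Ccnb2 from -0.13 to 0.21, Cdc20 from -0.14 to 0.14, Cdc6 from -0.18 to 0.09, Cdk1 from -0.06 to 0.13, Cdk2 from -0.03 to 0.22, Chek1 from -0.09 to 0.29, Mcm4 from -0.03 to 0.08, Mcm7 from -0.08 to 0.22, Pcna from -0.33 to 0.0068, Rrm1 from -0.08 to 0.08, Top2a from -0.07 to 0.09, Tyms from -0.08 to 0.32 and Ube2c from -0.09 to 0.23.

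Members higher in KO numbered 0 to 3 and members lower 0 to 5 when one sample was left out, while genes higher ranged from 647 to 2512 and genes lower from 701 to 2561. The main counts were 2, 1, 1153 and 1493. Under limma voom 3 members were higher (Ccnd2, Ccne2 and Cenpe) and 4 lower (Ccne1, Cdt1, Mcm5 and Rrm2), with 2442 genes higher and 2595 lower. With library size alone 0 members were lower. With at least 10 counts in every sample 678 genes were higher, a setting that tests fewer genes. At an adjusted p under 0.01, 528 genes were higher and 681 lower, with 0 members in either direction. With a replicate block 0 members were higher and 0 lower. Same-numbered control and KO samples had correlations of deviations of -0.272, -0.0895 and -0.140 in RNA and of -0.0252, 0.0394 and 0.0373 in RRBS. In RNA no KO sample correlated best with the control of its own number, while in RRBS KO 2 and KO 3 did. With 3 samples per group, such correlations cannot settle whether same-numbered samples were paired. The cause of the shifts was not tested.

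Promoters lower in KO numbered 311, and 534 with at least 5 calls, 134 with at least 20 calls, 90 with windows of 500 bases on each side, 632 with no overdispersion and 0 with a replicate block. Leaving out one RRBS sample gave 58 to 483 promoters and 0 to 1 member starts, the 1 being that of Cdc6 without KO 3. Few calls in RRBS KO 3 limit which starts could be tested.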
